A study of Drosophila simulans and Drosophila kikkawai and Drosophila takahashii with 176 samples.

Results

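The genes described here are those of Drosophila melanogaster whose FlyBase symbol begins with Vha, the subunits of the vacuolar ATPase (V-ATPase) and their paralogs. The symbols were taken from a reference annotation and matched by gene identifier to the rows of the accessory gland (AG) and testis tables, and 31 of the 33 such genes had a row among the 17727 rows. Vha44 (subunit C) and VhaAC39-1 (subunit d) had no row under their identifiers and were not analysed here. The study sequenced poly(A) RNA of male reproductive organs in 11 Drosophila species to compare which genes each organ expresses. For D. melanogaster there were 4 AG and 4 testis libraries, each made from the pooled organs of adult males of mixed stage, with 2 libraries per organ from each of 2 strains. Replicates 1 and 2 of each organ came from the genome reference strain, y; cn bw sp, and replicates 3 and 4 from ED10, a non-reference strain. No treatment or transgene was applied in any group, and exact ages were not given in the sources used here. Values are the TPM (an abundance per transcript length and library) deposited by the authors. Per the paper, the D. melanogaster testis estimates came from an earlier study, and its other libraries were made and analysed with the same methods. The part of this in the organ differences was not tested.

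The V-ATPase pumps protons across membranes at the cost of ATP. Its V1 sector sits in the cytoplasm and hydrolyses ATP in a ring of subunits A and B, a central stalk with D and F turns inside that ring, and E and G form the outer stalks. The V0 sector lies in the membrane, where a ring of proteolipids (c and c'') turns against subunit a and carries the protons. The pump acidifies lysosomes, endosomes and secretory granules in most animal cells and energizes the plasma membrane of fly Malpighian tubules, and in mammalian sperm it sits at the acrosome. Flies carry several genes for many of its subunits, of which some are used broadly and others in few tissues.

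Libraries differed in ways that bear on these genes. The TPM of a library added up to between 1070165 and 1959870, not to 1 fixed total, and AG replicate 1 stood apart with the highest total and 43.1% of it in its 10 highest rows. A size factor is the median ratio of a library to the geometric mean of all 8, over the 6606 rows above 1 TPM throughout. It was 0.501 in AG replicate 1, against 0.962 (AG replicate 2) to 1.29 (testis replicate 4) in the other libraries. Rows outside the highest thus tended to be lower in AG replicate 1. The defining markers of each organ were present: the 13 testis germline markers summed to 11112 to 18714 TPM in the testis libraries, and the 11 accessory gland secretion markers to 74089.9 to 312867 TPM in the AG libraries. All 13 germline markers were called higher in testis and 10 of the 11 secretion markers higher in AG. Acp95EF, the secretion marker with the highest AG mean, had no call by limma (adjusted p = 0.817). It was at 118699 and 87465.9 TPM in the reference strain AG libraries but at 0.0332 and 0.543 TPM in those of ED10. Each organ of the reference strain also held some of the other organ's markers. The germline markers summed to 575 and 640.2 TPM in the reference strain AG libraries against 12.7 and 4.53 TPM in the ED10 AG libraries, and the secretion markers to 1098 and 3011 TPM in the reference strain testis libraries against 106.5 and 52.6 TPM in the ED10 testis libraries. Of these testis sums, Acp95EF held 444.5 and 1085 TPM in the reference strain and 23.7 and 40.1 TPM in ED10. In ED10 it was thus higher in testis than in AG, and its part in the strain contrast was not tested. Of the 7 Malpighian tubule markers, cells rich in V-ATPase, 6 stayed below 1 TPM in every library, and ZnT35C, a zinc transporter, was the highest of the list, which summed to 0.698 to 5.24 TPM in AG and 76.0 to 90.3 TPM in testis. The ejaculatory duct markers summed to 398 to 4095 TPM in AG and 39.3 to 119 TPM in testis, and the muscle markers to 539 to 1552 and 223 to 1056 TPM. The fat body, neuron and hemocyte markers summed to 1.46 to 22.99, 5.98 to 45.96 and 1.62 to 19.6 TPM over the 8 libraries. Of the 4 neuron markers, 2 were called higher in testis by limma, nSyb (adjusted p = 0.0171) and brp (adjusted p = 0.0121), beside 41.9% of all rows. The other 2 had no call. The mean of elav was the higher one in AG, 1.72 against 0.528 TPM (difference -0.75, adjusted p = 0.0525). Syt1 was near 0 in both organs (difference 0.05, adjusted p = 0.403). The gene nSyb was at 4.29 to 6.06 TPM in AG and 10.6 to 42.7 TPM in testis. The part of these cells in the organ differences was not tested. In whole organs, fewer cells of a type and less RNA per cell cannot be told apart.

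To ask which V-ATPase genes differ between the organs, log2(TPM + 1) was compared by limma with Benjamini-Hochberg adjustment over the 17124 rows above 0 in at least 1 library. Of the 31 genes, 15 were called higher in testis, 2 were called higher in AG and 14 had no call. The 15 were 48.4% of the V-ATPase genes, where 41.9% of all rows were called higher in testis, and the 2 were 6.45%, where 11.2% of all rows were called higher in AG. So the share of calls lay near that of the transcriptome, and what set the genes apart from each other was which paralog of a subunit moved. The same 15 genes had all 4 testis libraries above all 4 AG libraries, as did 41.4% of all rows, and the same 2 had all 4 AG libraries above the testis, as did 10% of all rows. The median difference, testis minus AG, was 0.75 over the V-ATPase genes and 0.45 over all rows (log2). Of the 15 genes, 14 were called higher in testis under every one of the 21 settings tried, and Vha100-5 was the exception. The count of genes higher in AG was 4 without AG replicate 1, the library with the highest total, and 1 without testis replicate 3. The balance depends on the scaling: quantile normalization moved the median of all rows by -0.61, lowered the share of calls over all rows that were higher in testis from 78.8% to 46.1%, and gave 14 V-ATPase genes higher in testis and 10 higher in AG.

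**Figure D1:**
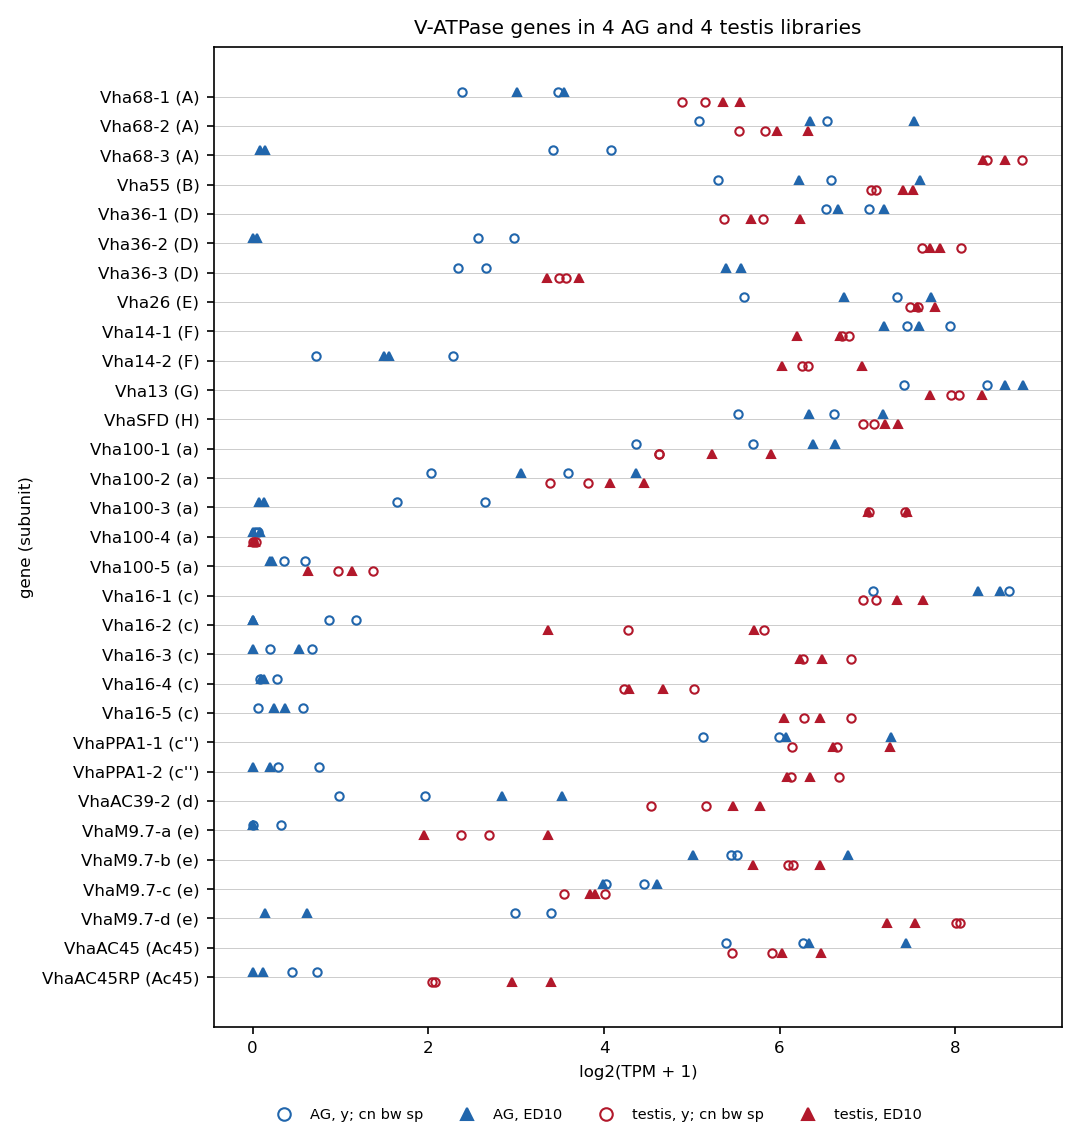
Level of the 31 V-ATPase genes in each library, as log2(TPM + 1), with the subunit in brackets. Circles are the reference strain and triangles ED10, blue is AG and red is testis. For 15 genes the 4 red points lie to the right of the 4 blue points, and for Vha14-1 and Vha36-1 they lie to the left.

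**Figure D2:**
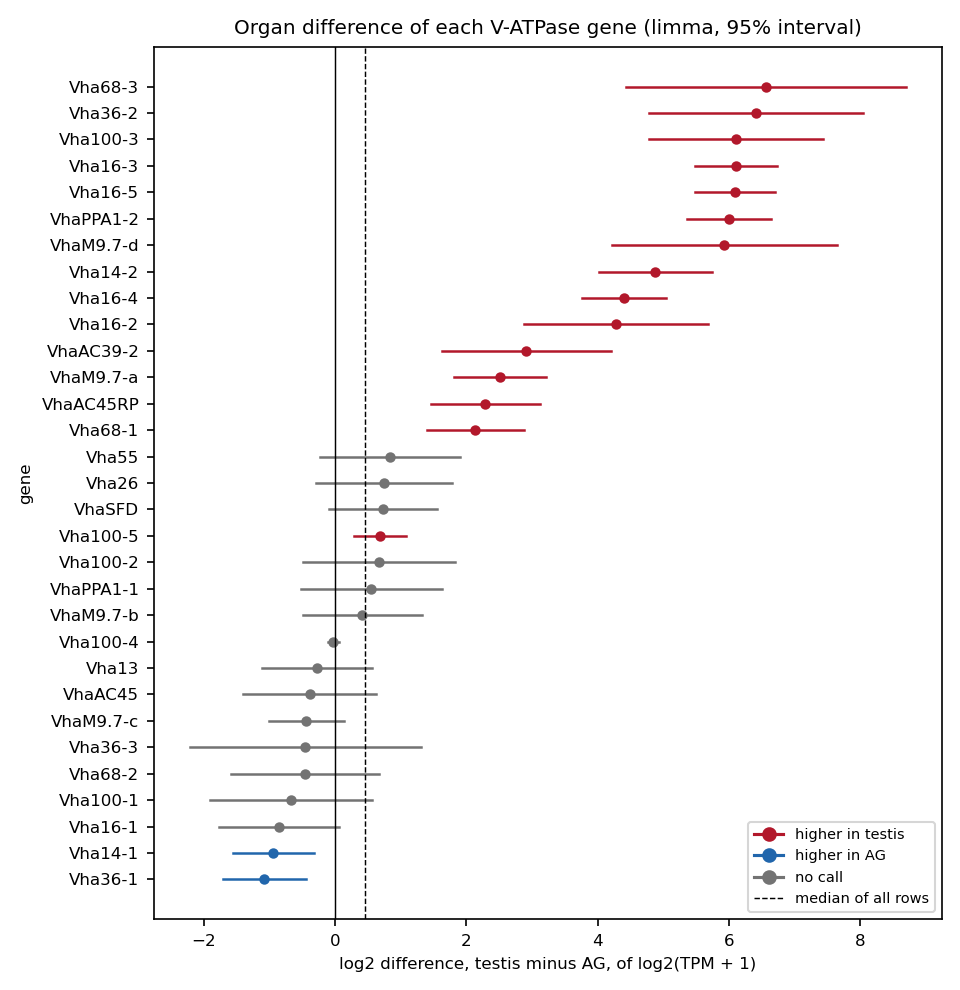
Difference between testis and AG for each V-ATPase gene on the log2(TPM + 1) scale, with its 95% interval from limma (4 libraries per organ). Red genes were called higher in testis, blue genes higher in AG and grey genes had no call, and the dashed line is the median of all rows, 0.45. The differences of the red genes run from 0.69 for Vha100-5 to 6.56 for Vha68-3.

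The catalytic subunit A binds and splits ATP and has 3 genes. Vha68-3 was at 9.71 and 15.96 TPM in the reference strain AG libraries, 0.105 and 0.0594 TPM in the ED10 AG libraries and 327, 432, 376 and 317 TPM in testis replicates 1 to 4. The organs did not overlap, the ED10 AG libraries were the lowest, and the difference of 6.56 (SE 0.93, adjusted p = 4.02e-04) was the largest among the V-ATPase genes. Vha68-2 was at 32.8, 92.3, 80.5 and 183 TPM in AG replicates 1 to 4 and 55.8, 45.6, 61.9 and 78.9 TPM in the testis. These ranges overlapped, and the difference was -0.46 (SE 0.49, adjusted p = 0.459). Vha68-1 was at 4.21 to 10.7 TPM in AG and 28.5 to 45.7 TPM in testis, a difference of 2.13 (SE 0.32, adjusted p = 5.73e-04). Vha68-2 took the largest share of subunit A in all 4 AG libraries, 83.6% ± 11.5 (SD, n = 4), and Vha68-3 in all 4 testis libraries, 78.5% ± 5.198. The genes of this pair are neighbours on one strand, with 178 bases between the end of Vha68-2 (2L:12974322-12978607, plus strand) and the start of Vha68-3 (2L:12978786-12981293, plus strand), in the release 6 assembly.

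Subunit B, the other part of the ring, has 1 gene, Vha55. It was at 38.4, 94.8, 73.4 and 192 TPM in AG replicates 1 to 4 and 135.7, 130.1, 168 and 182 TPM in testis. AG replicate 4 lay above all testis libraries and AG replicate 1 far below them, and the difference of 0.84 (SE 0.46, adjusted p = 0.162) had a 95% interval of -0.22 to 1.90. Leaving out AG replicate 4 raised it to 1.23 (adjusted p = 0.0234). The other V1 subunits with 1 gene had no call either. Vha26, subunit E of the outer stalk, was at 47.2 to 210.1 TPM in AG and 178 to 217 TPM in testis (difference 0.75, adjusted p = 0.196). Vha13, subunit G, had the highest mean of the V-ATPase genes in AG, though Vha14-1 exceeded it in AG replicate 1 and Vha16-1 in AG replicate 2. It was at 170.1 to 437 TPM in AG and 209 to 314 TPM in testis (difference -0.28, adjusted p = 0.545). VhaSFD, subunit H, which in yeast regulates the activity of V1, was at 44.96 to 143.8 TPM in AG and 122 to 161 TPM in testis (difference 0.73, adjusted p = 0.124). It too was called higher in testis without AG replicate 4 (0.98, adjusted p = 0.0367), but higher in AG under quantile normalization (-0.78, adjusted p = 0.0371).

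The central stalk has 3 genes for subunit D and a pair for subunit F, and here 1 gene of each rose in testis and 1 of each was lower there. Vha36-2 was at 4.94 and 6.87 TPM in the reference strain AG libraries, at 0.0327 and 0 TPM in those of ED10 and at 195, 267, 226 and 209 TPM in the testis libraries. No AG library came near the testis, and the difference was 6.41 (SE 0.71, adjusted p = 1.06e-04). Vha36-1 was at 90.9, 129, 100.7 and 144.3 TPM in AG and 55.3, 40.1, 49.9 and 74.0 TPM in testis. All AG libraries were above all testis libraries, and the difference was -1.08 (SE 0.28, adjusted p = 0.0102). Vha36-1 made up 82.2% ± 10.4 of subunit D in AG and Vha36-2 made up 77.2% ± 5.42 in testis, each leading in 4 of 4 libraries.

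For subunit F, Vha14-1 was at 174, 244, 144.7 and 191 TPM in AG and 109.2, 104, 72.4 and 102.4 TPM in testis, a difference of -0.94 (SE 0.27, adjusted p = 0.0167). Vha14-2 was at 0.645, 3.87, 1.93 and 1.82 TPM in AG and 75.3, 79.05, 121 and 64.4 TPM in testis, a difference of 4.87 (SE 0.37, adjusted p = 1.75e-05). Both pairs of groups were without overlap. Vha14-2 was 1.05% ± 0.519 of subunit F in AG and 46.3% ± 11.01 in testis, where it exceeded Vha14-1 in replicate 3 alone. The calls of Vha14-1 and Vha36-1 did not hold when each library was rescaled to 1000000, where their differences were -0.58 (adjusted p = 0.147) and -0.72 (adjusted p = 0.137). Vha14-1 also lost its call without testis replicate 3 (-0.81, adjusted p = 0.0504) and without the HiSeq 2500 libraries (-0.96, adjusted p = 0.0612). Within single strains, with fewer libraries, the differences were -0.95 and -1.18 in the reference strain (adjusted p = 0.0813 and 0.053) and -0.94 and -0.98 in ED10 (adjusted p = 0.0899 and 0.0952) for Vha14-1 and Vha36-1. Their direction was the same in all of the 21 settings.

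In the membrane sector, subunit a holds the paths by which protons enter and leave the pump and helps to place it in a given membrane. Of its 5 genes, Vha100-3 was at 2.12 and 5.28 TPM in the reference strain AG libraries, 0.0973 and 0.0495 TPM in the ED10 AG libraries and 129, 171, 174 and 128 TPM in testis. The difference was 6.10 (SE 0.58, adjusted p = 4.50e-05), with no overlap. Vha100-1, known as the neuronal form in flies, was at 19.7, 50.8, 82.2 and 97.98 TPM in AG and 23.8, 23.7, 36.6 and 58.6 TPM in testis, with overlap and no call (-0.67, adjusted p = 0.326). Without AG replicate 1 it was called higher in AG (-1.14, adjusted p = 0.0463). Its share of subunit a was 81.97% ± 7.18 in AG, where it led in 4 of 4 libraries, and 17.5% ± 7.34 in testis, where Vha100-3 led in 4 of 4 with 74.6% ± 9.27.

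The remaining genes of subunit a were low. Vha100-2 ranged from 3.09 to 19.5 TPM in AG and 9.41 to 21.01 TPM in testis (difference 0.67, adjusted p = 0.294). Vha100-5 ranged from 0.145 to 0.509 TPM in AG and 0.553 to 1.59 TPM in testis (difference 0.69 (SE 0.17, adjusted p = 0.00967)), and this was the 1 called gene whose direction turned under quantile normalization (-0.27). In ED10 alone it had no call (0.68, adjusted p = 0.0697). Vha100-4, which lies 517 bases from Vha100-2 on one strand, did not exceed 0.0566 TPM in any library (difference -0.03, adjusted p = 0.601). It is overlapped on the opposite strand by cona, a gene of the synaptonemal complex, which was at 126 ± 24.3 TPM in testis (SD, n = 4), so Vha100-4 stayed near 0 beside an abundant overlapping gene.

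Subunit c forms most of the proteolipid ring and has 5 genes. Vha16-1 was at 132, 389, 305 and 363 TPM in AG replicates 1 to 4 and 136.1, 123, 161 and 198 TPM in testis. AG replicate 1 fell within the testis range and the other AG libraries above it, and the difference was -0.85 (SE 0.40, adjusted p = 0.106). Without AG replicate 1 the gene was called higher in AG (-1.20, adjusted p = 0.00777). In AG, Vha16-1 made up 99.2% to 99.9% of subunit c, that is, nearly all of it.

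The other 4 genes of subunit c were nearly silent in AG and added up to more than Vha16-1 in testis. Vha16-3 was at 0.148, 0.593, 0 and 0.437 TPM in AG and 111.5, 75.9, 74.4 and 88.4 TPM in testis (difference 6.10 (SE 0.27, adjusted p = 8.90e-06)). Vha16-5 was at 0.0416, 0.485, 0.289 and 0.187 TPM in AG and 111.03, 76.6, 65.0 and 87.3 TPM in testis (difference 6.09 (SE 0.27, adjusted p = 8.90e-06)). Vha16-3 and Vha16-5 thus had almost the same level as each other in testis replicates 1, 2 and 4, and Vha16-5 was the lower one in replicate 3. Vha16-4 was lower, at 0.0592, 0.216, 0.0723 and 0.0987 TPM in AG and 31.6, 17.7, 24.5 and 18.4 TPM in testis (difference 4.40 (SE 0.28, adjusted p = 1.05e-05)). Vha16-2 was at 0.828, 1.26, 0 and 0 TPM in AG, listed at 0 in both ED10 libraries, and at 55.6, 18.3, 9.27 and 51.3 TPM in testis (difference 4.28 (SE 0.61, adjusted p = 4.28e-04)). Relative to its mean, its testis libraries varied more than those of any other subunit c gene, with replicates 2 and 3 below replicates 1 and 4. In testis the shares were 40.7% ± 7.66 for Vha16-1, 22.9% ± 2.29 for Vha16-3, 22.2% ± 2.99 for Vha16-5, 8.17% ± 4.63 for Vha16-2 and 6.07% ± 1.47 for Vha16-4. Vha16-2 (3L:11474958-11475552, plus strand) and Vha16-3 (3L:11473291-11473972, plus strand) are neighbours, 985 bases apart. Paralogs of one subunit can share reads, and how the authors' counting divided such reads was not tested.

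Subunit c'', a further proteolipid of the ring, has the same arrangement in a tandem pair 2052 bases apart. VhaPPA1-2 was at 0.222, 0.684, 0.148 and 0 TPM in AG and 101.3, 68.9, 66.8 and 80.2 TPM in testis (difference 5.997 (SE 0.28, adjusted p = 8.90e-06)). VhaPPA1-1 was at 33.8, 62.7, 66.3 and 153 TPM in AG and 99.7, 69.4, 96.5 and 152 TPM in testis, with overlap and no call (difference 0.55 (SE 0.47, adjusted p = 0.352)). VhaPPA1-2 held 0.489% ± 0.478 of subunit c'' in AG and 43.9% ± 7.63 in testis. The genes of the pair were at about equal levels in the reference strain testis libraries, where VhaPPA1-1 took 49.6% and 50.2%, and VhaPPA1-1 was the higher one in those of ED10, with 59.1% and 65.5%.

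Subunit e is a small membrane protein with 4 genes. VhaM9.7-d was at 9.50 and 6.93 TPM in the reference strain AG libraries, 0.0993 and 0.532 TPM in the ED10 AG libraries and 256, 264, 185 and 148.9 TPM in testis (difference 5.92 (SE 0.75, adjusted p = 2.09e-04)). VhaM9.7-b was at 44.7, 42.6, 31.4 and 108.3 TPM in AG and 67.4, 70.0, 50.8 and 86.8 TPM in testis, with AG replicate 4 the highest of all and no call (difference 0.41 (SE 0.40, adjusted p = 0.412)). Leaving out AG replicate 4 gave a call toward testis (0.77, adjusted p = 0.0466) and quantile normalization a call toward AG (-1.15, adjusted p = 0.0264). VhaM9.7-b led in AG with 67.4% ± 13.8 of subunit e and VhaM9.7-d in testis with 70.3% ± 8.56, each in 4 of 4 libraries. VhaM9.7-c ranged from 14.9 to 23.3 TPM in AG and 10.6 to 15.1 TPM in testis (difference -0.44, adjusted p = 0.171). VhaM9.7-a was listed at 0 in 3 AG libraries and at 0.255 TPM in AG replicate 1, against 2.85 to 9.25 TPM in testis (difference 2.51 (SE 0.30, adjusted p = 1.69e-04)).

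For subunit d, which couples the proteolipid ring to the stalk, VhaAC39-2 was the gene with a row. It was at 0.971, 2.90, 6.15 and 10.5 TPM in AG and 34.7, 22.1, 43.3 and 53.98 TPM in testis, without overlap, and the difference was 2.91 (SE 0.56, adjusted p = 0.00231). The ED10 libraries were the higher ones within AG, the opposite of Vha68-3 and Vha36-2. That strain difference had no call in the reported fit (1.71, adjusted p = 0.0737). It was called by limma with size factors (1.26, adjusted p = 0.0355), quantile normalization (1.95, adjusted p = 0.00553) and a mean of at least 1 (adjusted p = 0.0404). Ac45 is an accessory protein of V0. VhaAC45 was at 41.04, 76.2, 79.4 and 172 TPM in AG and 59.2, 43.0, 64.4 and 87.6 TPM in testis, with no call (-0.39, adjusted p = 0.486), and it made up 99.6% ± 0.488 of the pair in AG and 92.02% ± 3.37 in testis. Its relative VhaAC45RP ranged from 0 to 0.666 TPM in AG and 3.11 to 9.51 TPM in testis (difference 2.29 (SE 0.36, adjusted p = 7.34e-04)). ATP6AP2, another accessory protein whose symbol does not begin with Vha, was at 94.7 ± 55.6 TPM in AG and 139.2 ± 26.2 TPM in testis (difference 0.68, adjusted p = 0.171).

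**Figure D3:**
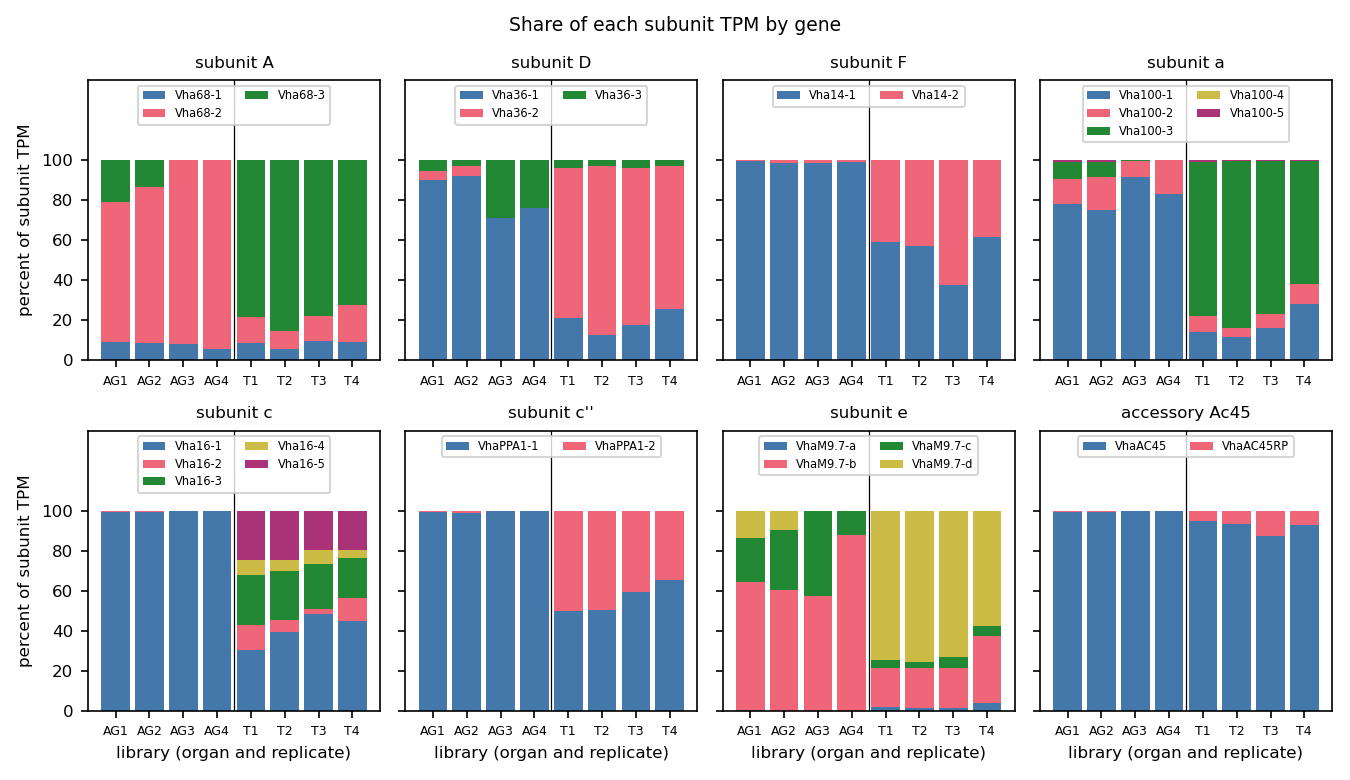
Percent of the summed TPM of each subunit that each of its genes takes, per library, for the 8 subunits with more than 1 gene. Bars AG1 to AG4 and T1 to T4 are the AG and testis replicates. In subunits A, D, a and e a different gene leads in testis than in AG, and in F, c, c'' and Ac45 the gene that leads in AG has the highest mean in both organs.

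A share within a library does not move when a library is multiplied by a constant. Of the 8 subunits with more than 1 gene among the 31, 4 (A, D, a and e) were led by different genes in AG and testis. The other 4 (F, c, c'' and Ac45) were led by the same gene on the mean, though not in testis replicate 3 for F and testis replicate 1 for c''. Subunit d could not be compared in this way, as VhaAC39-1 had no row. The 15 genes called higher in testis made up 52.2, 55.2, 51.5 and 42.6% of the summed TPM of the V-ATPase genes in testis replicates 1 to 4, against 3.70, 3.03, 1.002 and 0.982% in AG replicates 1 to 4. These genes were chosen by their organ difference, so these percentages describe its size and test nothing. Together the 31 genes held 0.0474, 0.109, 0.123 and 0.201% of the library total in AG and 0.231, 0.217, 0.230 and 0.286% in testis.

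The balance between subunits was then compared through Vha55, since B is the 1 gene of a ring that holds A and B in equal number. The 3 genes of subunit A summed to 1.17 ± 0.107 times the level of Vha55 in AG (SD, n = 4, range 1.01 to 1.25) and 3.06 ± 0.622 times in testis (range 2.40 to 3.89), without overlap. Vha68-2 alone was 0.970 ± 0.0999 of Vha55 in AG and 0.391 ± 0.0385 in testis, whereas Vha68-3 was 2.43 ± 0.658 in testis. Subunit a summed to 0.801 ± 0.285 in AG and 1.33 ± 0.186 in testis, and subunit e to 0.986 ± 0.553 and 2.04 ± 0.664, and in both the organs overlapped. The c'' total was also higher relative to Vha55 in all testis libraries, at 0.973 to 1.48 against 0.668 to 0.906 in AG. The d ratio, which rests on VhaAC39-2 alone, was 0.0253 to 0.0838 in AG and 0.170 to 0.297 in testis.

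Other subunits overlapped or were lower in testis relative to Vha55. The ratio of subunit D was 1.76 ± 0.698 in AG and 1.92 ± 0.369 in testis, and that of subunit c was 3.41 ± 1.06 and 2.53 ± 0.544, both with overlap. Subunit G was the subunit with the highest mean ratio in AG, 3.82 ± 1.24, and it was lower in every testis library (1.24 to 2.01). The Ac45 ratio was lower without overlap as well, 0.354 to 0.519 in testis against 0.810 to 1.08 in AG. Subunits E and H had close ratios in the organs, 1.36 ± 0.259 and 1.27 ± 0.132 for E and 1.01 ± 0.182 and 0.921 ± 0.0517 for H. These are values with no test, and AG replicates spread widely for F (1.002 to 4.55), where replicate 1 was the highest.

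**Figure D4:**
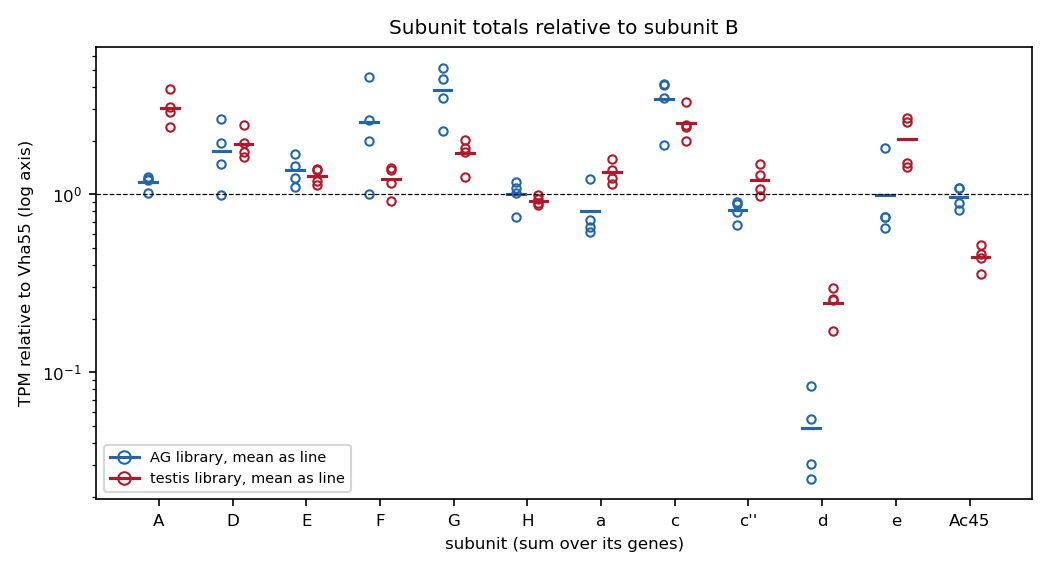
TPM of each subunit, summed over its genes with a row, divided by the TPM of Vha55 (subunit B) in the same library, on a log axis. Each circle is a library and each line the mean of 4 libraries, with AG in blue and testis in red. Subunits A, c'' and d lie higher in all testis libraries than in all AG libraries, and G and Ac45 lie lower.

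Gene structure was read from the annotation, which the rule for choosing the genes did not use. Of the 15 genes called higher in testis, 6 have a single exon in every transcript (Vha100-3, Vha16-2, Vha16-4, Vha16-5, VhaM9.7-d and VhaPPA1-2), and so do both genes called higher in AG and 1 of the 14 with no call, VhaM9.7-c. A single exon is therefore found among genes of each outcome. Of the 31 genes, Vha36-3 is the 1 on the X chromosome. The family holds 4 pairs of tandem neighbours. In Vha68-2 and Vha68-3 and in VhaPPA1-1 and VhaPPA1-2 the downstream gene was the one called higher in testis, Vha16-2 and Vha16-3 were both called, and Vha100-2 and Vha100-4 were not.

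Of the 15 genes, 4 are overlapped by a gene on the opposite strand. The libraries were directional, but whether strand was used in the authors' estimates is not given in the sources used here. Vha100-3 shares its position with sano, which was at 5.63 ± 5.61 TPM in AG and 1.89 ± 1.55 TPM in testis, far below Vha100-3 in testis. VhaPPA1-2 shares its position with CG3817, which was at 10.5 ± 6.596 and 11.5 ± 2.29 TPM and had no call (adjusted p = 0.614). Vha16-2 is overlapped by asRNA:CR46049, which was at 65.2 ± 11.9 TPM in testis, above Vha16-2 itself. Vha100-5 is overlapped by asRNA:CR44144, at 28.03 ± 25.1 TPM in testis, and reads of these last 2 pairs may not be fully separated.

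The strains were compared within each organ in 1 fit of the 4 groups of 2 libraries, which share an estimate of the spread. In AG, 5 V-ATPase genes were called, and 8 without AG replicate 2. Of these, 4 were lower in ED10 (12.9% of the 31, where 8.68% of all rows were called lower in ED10), and 1 was higher (3.23%, where 1.65% of all rows were called higher in ED10). The 4 lower genes were among those highest in testis: Vha68-3 differed by -3.64 (SE 0.31, adjusted p = 0.00111), Vha36-2 by -2.75 (SE 0.28, adjusted p = 0.00173), VhaM9.7-d by -2.81 (SE 0.29, adjusted p = 0.00186) and Vha100-3 by -2.05 (SE 0.40, adjusted p = 0.0238). The call of Vha100-3 was lost without each of the testis libraries in turn, which leaves the difference itself at -2.05 and takes away libraries for the spread (adjusted p = 0.0566 to 0.0757), without AG replicate 3 (-2.08, adjusted p = 0.068) or AG replicate 4 (-2.01, adjusted p = 0.107), and when rescaled (-1.47, adjusted p = 0.0683). Both reference strain AG libraries were run on a HiSeq 4000 and the ED10 AG libraries on a HiSeq 3000 and a HiSeq 2500, so strain and platform cannot be told apart in AG. Of all rows, 14.8% and 17.3% were at 0 in the reference strain AG libraries and 23.2% and 29.9% in those of ED10. The 4 lower genes were at 0 to 0.532 TPM in ED10 AG, and the part of detection in their strain calls was not tested. Without the HiSeq 2500 libraries, where 1 ED10 library per organ is left and is assumed to vary like the other groups, 2 V-ATPase genes were called, Vha68-3 (-3.61, adjusted p = 0.0497) and VhaM9.7-d (-3.05, adjusted p = 0.0479).

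Of the 13 testis germline markers, 5 were called lower in ED10 AG as well (dj, ProtA, ProtB, Mst87F and Mst84Da) and none higher. The other 8 had no call, and of these vas and mia had the higher mean in ED10, at 1.10% of their testis mean against 0.535% for vas and 9.25% against 5.55% for mia. In the reference strain AG libraries Vha68-3 stood at 2.67% and 4.39% of its testis mean and Vha36-2 at 2.20% and 3.06%, with VhaM9.7-d at 4.45% and 3.24% and Vha100-3 at 1.41% and 3.51%. The sperm protein gene dj stood at 4.12% and 5.93% of its testis mean, ProtA, a sperm chromatin protein, at 3.39% and 4.67%, and Mst87F, a sperm tail protein, at 4.64% and 3.65%. In the ED10 AG libraries the 4 V-ATPase genes were at or below 0.249% of their testis means and these 3 markers at or below 0.0873%. Over the whole list of 13 markers the median was 0.849% and 3.65% in the reference strain libraries and 0.0873% and 0 in the ED10 libraries. The part of the markers in the strain difference was not tested. The organ difference of these 4 genes was as large or larger in ED10 alone, with 8.32 for Vha68-3, 7.75 for Vha36-2, 7.13 for Vha100-3 and 7.01 for VhaM9.7-d.

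Other genes called higher in testis had no strain call. Vha16-5 was at 0.0490% and 0.571% of its testis mean in the reference strain AG libraries and 0.341% and 0.221% in those of ED10, and Vha16-4 was at 0.256% and 0.937% and 0.313% and 0.427%. Neither had a strain call in AG. In the ED10 AG libraries Vha68-1 and VhaAC39-2 were at 19.05% and 28.7% and 15.96% and 27.2% of their testis means, against 11.3% and 27.2% for Vha68-1 and 2.52% and 7.52% for VhaAC39-2 in those of the reference strain.

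**Figure D5:**
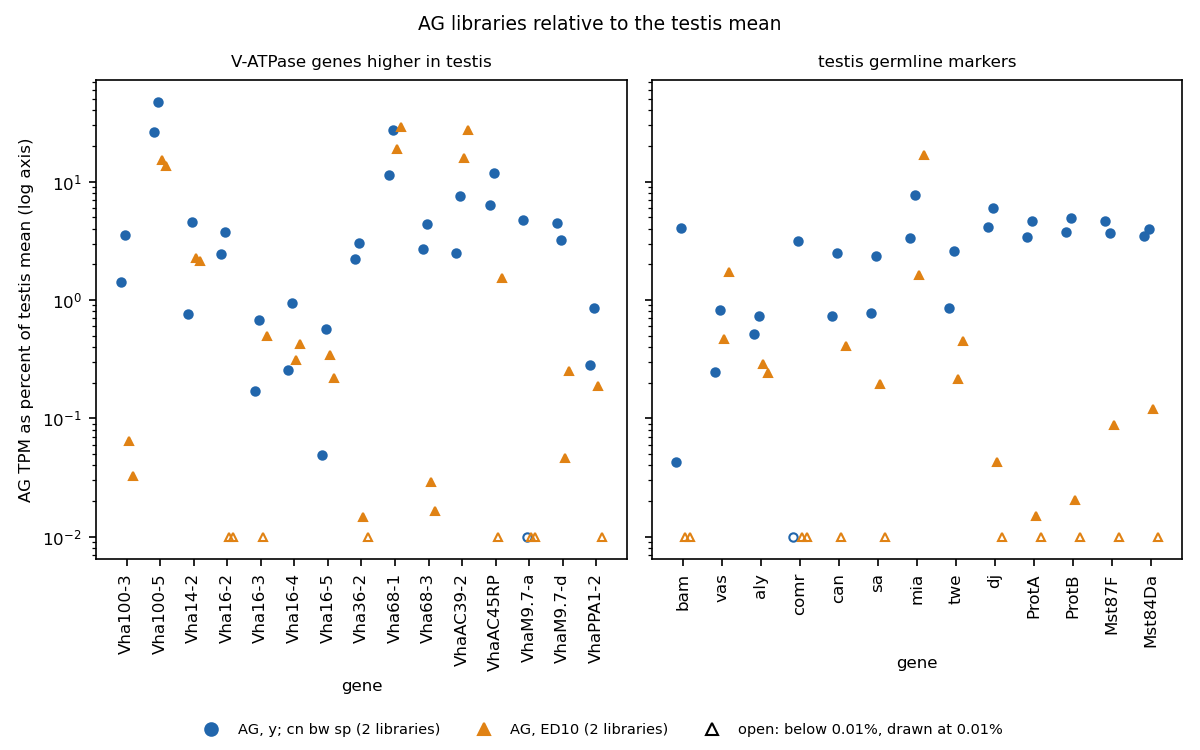
Level in each AG library as a percent of the gene's mean over the 4 testis libraries, on a log axis, for the 15 V-ATPase genes called higher in testis (left) and the 13 testis germline markers (right). Blue circles are the reference strain and orange triangles ED10, and open symbols are values below 0.01%. For Vha68-3, Vha36-2, Vha100-3 and VhaM9.7-d, as for dj, ProtA, ProtB, Mst87F and Mst84Da, the circles lie between 1.41% and 5.93% and the triangles below 0.25%.

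Vha36-3, the third gene of subunit D, showed the opposite strain difference. It was at 5.33 and 4.05 TPM in the reference strain AG libraries, 40.8 and 46.2 TPM in those of ED10 and 10.9, 10.2, 12.2 and 9.23 TPM in the testis libraries. ED10 was thus 9.28 times the reference strain in AG, the strains lay together in testis, and the testis lay between them. The strain difference in AG was 2.97 (SE 0.28, adjusted p = 0.00142), and without the HiSeq 2500 libraries it was 2.89 (adjusted p = 0.0532). Vha36-3 made up 5.27% and 2.90% of subunit D in the reference strain AG libraries and 28.8% and 24.2% in those of ED10. With the strains pooled there was no organ call (difference -0.45 (SE 0.77, adjusted p = 0.645)). The estimates within single strains had opposite signs, 1.03 in the reference strain, with no call (adjusted p = 0.0824), and -1.94 in ED10 (adjusted p = 0.00708).

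In testis no V-ATPase gene was called between strains by limma, where 4.29% of all rows were. At an unadjusted p under 0.05 there was 1, VhaAC45RP, which was called, higher in ED10, when libraries were rescaled to 1000000 (1.19, adjusted p = 0.0425) and without testis replicate 4 (1.34, adjusted p = 0.0417). Whether the strain difference depends on the organ was tested by the interaction, the strain difference (ED10 minus reference) in testis minus that in AG. It was called for 4 genes (12.9%), where 8.22% of all rows were called: Vha68-3 at 3.52 (adjusted p = 0.00798), Vha36-3 at -2.97 (adjusted p = 0.0093), Vha36-2 at 2.68 (adjusted p = 0.0118) and VhaM9.7-d at 2.17 (adjusted p = 0.0268). None of the 4 kept the call without testis replicate 1 or without the HiSeq 2500 libraries, and Vha68-3 alone did without testis replicate 2 (3.72, adjusted p = 0.0463). The call of VhaM9.7-d was also lost without AG replicate 3 or 4, without each of the testis replicates in turn and under all 3 scalings, where the interaction was 1.63 when rescaled (adjusted p = 0.0628), 2.45 with size factors (adjusted p = 0.0619) and 2.08 with quantile normalization (adjusted p = 0.145).

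Genes that work with the V-ATPase were given the same organ test, beside the median of 0.45 over all rows. Of the 3 genes of assembly and regulation, 1 was called, Mitf, a transcription factor known in flies to activate V-ATPase genes, at 20.9 ± 9.97 TPM in AG and 8.27 ± 1.64 TPM in testis (difference -1.14 (SE 0.36, adjusted p = 0.0281)), and the list's median was -1.14. A list of 9 genes held the Rag and Ragulator genes, which link the pump to TOR signalling at the lysosome, together with raptor and Rheb of TOR signalling. Of these 9, 3 were higher in AG and none in testis (beside 11.2% and 41.9% of all rows). Lamtor2 led them with a difference of -1.64 (SE 0.54, adjusted p = 0.0306), and the median was -0.49. Of 18 lysosomal genes, 2 were higher in testis and 4 in AG (median -0.33), led by Cln3, a lysosomal membrane protein, with 3.04 (SE 0.83, adjusted p = 0.0144), and Hexo2, a hexosaminidase, with -3.49 (SE 0.79, adjusted p = 0.00575). Of 8 ion exchangers, Nha1, a sodium and proton antiporter, was higher in testis (1.93 (SE 0.23, adjusted p = 1.63e-04)) and ClC-a, a chloride channel, higher in AG (-4.07 (SE 0.53, adjusted p = 2.54e-04)), with a median of 0.08.

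The mitochondrial ATP synthase is a relative of the V-ATPase that also has paralogs, and it served as a comparison. Of its 17 genes, 6 were called higher in testis and 4 higher in AG, beside 41.9% and 11.2% of all rows, with a median difference of 0.08. Among the 6 were the paralogs ATPsynCF6L, ATPsynGL, ATPsynbetaL and ATPsynepsilonL, and ATPsynCF6L had the largest difference, 7.01 (SE 0.76, adjusted p = 9.39e-05), with 3.56 ± 4.84 TPM in AG and 359 ± 55.8 TPM in testis. The largest difference toward AG was that of ATPsyndelta, -1.47 (SE 0.40, adjusted p = 0.0136). That family too held genes with differences above 6 beside genes with little difference, and whether the families differ from each other was not tested.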

How the data were processed

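Per the labels and the study's methods, the authors made directional poly(A) libraries, aligned them with STAR (2.5.3) to release 6 of the D. melanogaster genome and estimated reference transcripts with StringTie. The deposited values are their TPM per gene, read here as a signal because library totals differ. How transcripts were summed to genes is not given in the sources used here. No read counts were used, so the depth behind each value, which bears on whether a low gene is detected, is unknown. Symbols and coordinates came from Ensembl release 115 of the same assembly release. The 31 genes, partner and marker lists and the tests were chosen with earlier results of these data known.

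Rows above 0 in at least 1 library (17124) were fitted on log2(TPM + 1) with limma (3.58.1, R 4.3.3, with a trend over the mean), Benjamini-Hochberg adjusted over all of them, threshold 0.05. The pseudocount of 1 understates differences of low genes. The script was tested on simulated data, with differences added to the more abundant rows alone, so this does not cover genes near 0. Organs were compared with strains pooled, and strains in a fit of 4 groups. Libraries of an organ are biological replicates, and AG and testis libraries were treated as independent of each other. Shares and ratios to Vha55 were computed within libraries, with no test (Python 3.11, pandas 2.3). Alternatives were a pseudocount of 0.1, a mean of at least 1, 3 scalings, strain as a covariate, no trend, each strain alone, no HiSeq 2500 libraries, protein-coding genes alone each library left out and, added later, the HiSeq 2500 batch as a covariate. Every gene is named, with values per library for the 10 largest called differences, the leading gene of each subunit and Vha55, and of each partner list the largest called gene per direction and Mitf. The single germline markers, the ATP synthase paralogs, ATP6AP2 and the overlapping genes were named after their values were seen. Sequences and promoter motifs were not analysed here. Columns left out: 0.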

Additional observations from a re-analysis of the deposited data

Results flagged for a closer look

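The strain difference depended on the organ for 4 V-ATPase genes by the interaction test (limma with Benjamini-Hochberg adjustment, strain difference in testis minus that in AG, log2). It was 3.52 for Vha68-3, 2.68 for Vha36-2 and 2.17 for VhaM9.7-d, which were lower in both ED10 AG libraries than in both reference strain AG libraries, and -2.97 for Vha36-3, which was higher in both. Of the 13 testis germline markers, 5 were called lower in ED10 AG as well, 8 had no call, and vas and mia among these had a higher mean in ED10. The part of the markers in the first 3 was not tested. For Vha36-3 the testis libraries of both strains (9.23 to 12.2 TPM) lay between the AG libraries of the reference strain and of ED10. VhaM9.7-a was at 0.255 TPM in AG replicate 1 and listed at 0 in the other 3 AG libraries, where any value above 0 would have stood apart and a level this low cannot be told from 0. Of 62 sets of 4 libraries looked at, chance marks about 1 in 20 in this way.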

How the results depend on the processing

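The count of genes higher in testis stayed between 14 and 18 under all 20 alternatives. The count higher in AG, 2, was 7 with size factors, 10 with quantile normalization, 0 when rescaled to 1000000 or in the reference strain alone, and 1 in ED10 alone or without the HiSeq 2500 libraries. It ranged from 1 (without testis replicate 3) to 4 (without AG replicate 1) as each library was left out. Genes with all AG libraries above the testis numbered 0 when rescaled, 6 with size factors and 10 with quantile normalization. Genes called by strain in AG, 5, ranged from 4 to 8 as libraries were left out (8 without AG replicate 2) and were 2 without the HiSeq 2500 libraries. Those called by strain in testis, 0, were 1 when rescaled and ranged from 0 to 1 (without testis replicate 4). Those with an interaction, 4, ranged from 0 (without testis replicate 1) to 5 (without AG replicate 1) and were 0 without the HiSeq 2500 libraries and 6 with a pseudocount of 0.1.

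Quantile normalization moved the median of all rows by -0.61 and turned the organ difference of Vha100-2 to -0.59, Vha100-5 to -0.27, Vha26 to -0.65, Vha55 to -0.66, VhaM9.7-b to -1.15, VhaPPA1-1 to -0.995 and VhaSFD to -0.78. Rescaling (median moved by 0.12) turned Vha13 to 0.0775, and the reference strain alone turned Vha13 to 0.10 and Vha36-3 to 1.03. Vha36-3 was at 0.13 without the HiSeq 2500 libraries and ranged from -1.002 to 0.0722 as each library was left out. Size factors moved the median by -0.17. Over the single V-ATPase genes and alternatives, 579 organ differences kept their direction and side of the threshold, 17 gained a call, 9 lost it and 13 reversed, and 10 strain differences and 18 interactions lost their call. Some alternatives that kept every library also added calls. By strain in AG these were for VhaAC39-2, Vha100-1 and Vha16-2, by strain in testis for VhaAC45RP, and by interaction for Vha100-3 and VhaAC45RP. The causes were not tested. No paired analysis was made, because the sources used here do not say whether an AG and a testis library came from the same flies. The library labels of replicates 1, 2 and 4 run consecutively across the organs, but what this means is not given. AG replicate 4 and testis replicate 4 were sequenced in the same HiSeq 2500 runs, and a fit with that batch as a covariate, chosen after seeing the data, gave 15 genes higher in testis and 2 higher in AG. The strain comparisons rest on 2 libraries per strain and organ, strain and platform cannot be told apart in AG, and the depth behind each TPM is unknown, so values near 0 cannot be told from 0.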
